A study of Mus musculus with 8 samples.

Results

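The cytosolic heat shock chaperones described here are 10 genes: Hspa1a, Hspa1b, Hspa8, Hsph1, Hspb1, Hsp90aa1, Hsp90ab1, Dnaja1, Dnajb1 and Bag3. A gene was measured through the probes whose accession maps to its symbol, and the brightest probe well above background in at least 4 of 8 channels stood for it. This gave 9 of the 10 genes, among 22122 genes or unnamed transcripts tested. Hspa1b had no probe under its own accession and is not analysed here. Kidneys came from 4 mice homozygous for a mutation of Pus1, a tRNA pseudouridine synthase gene, and from 4 wild-type mice. In each genotype replicates 1 and 2 were female and replicates 3 and 4 male, all were 14 to 16 weeks old, and the stated strain was C57BL/6J with 5 generations of backcrosses. Each of 4 dual-channel Agilent arrays held a mutant and a wild-type sample of the same number and sex, so a log2 ratio of mutant over wild type was read within each array. The RNA came from cross sections of whole frozen kidney, a mix of cell types, in which fewer cells of a type and less RNA per cell cannot be told apart.

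Heat shock chaperones bind unfolded or partly folded proteins and help them to fold, stay soluble or be degraded. Hsp70 proteins hold client proteins in a cycle driven by ATP, J proteins deliver clients and start the cycle, exchange factors release the nucleotide and the client, and Hsp90 proteins act on clients that are nearly folded, such as kinases and steroid receptors. Under stress the transcription factor HSF1 raises many of these genes through heat shock elements, which are inverted repeats of GAA and TTC units in their promoters. In the kidney the inner medulla lives in salty, urea-rich fluid, and Hsp70 and the small heat shock proteins are known to be abundant there.

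The promoters of an inducible Hsp70 gene, of the small heat shock protein gene and of the Hsp110 gene are shown because the levels of these members varied most with the sample or differed between the sexes. Each is the RefSeq sequence of GRCm38.p6, 5′ to 3′ on the gene's strand, from 250 bases before a start in RefSeq's promoter table (the first listed) to 50 bases after it, and capitals mark heat shock elements of 2 or more units (GAANNTTC or TTCNNGAA, where N is any base). Hspa1a lies at chr17:34972107-34972406 on the minus strand, Hspb1 at chr5:135887669-135887968 on the plus strand and Hsph1 at chr5:149636287-149636586 on the minus strand. For Hsph1 this start lies inside the annotated gene and not at its 5′ end.
Hspa1a: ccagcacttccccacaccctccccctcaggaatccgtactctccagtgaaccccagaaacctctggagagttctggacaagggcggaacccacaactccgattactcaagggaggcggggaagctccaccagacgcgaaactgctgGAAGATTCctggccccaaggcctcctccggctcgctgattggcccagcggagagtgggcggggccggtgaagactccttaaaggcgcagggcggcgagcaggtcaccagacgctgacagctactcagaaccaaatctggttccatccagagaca
Hspb1: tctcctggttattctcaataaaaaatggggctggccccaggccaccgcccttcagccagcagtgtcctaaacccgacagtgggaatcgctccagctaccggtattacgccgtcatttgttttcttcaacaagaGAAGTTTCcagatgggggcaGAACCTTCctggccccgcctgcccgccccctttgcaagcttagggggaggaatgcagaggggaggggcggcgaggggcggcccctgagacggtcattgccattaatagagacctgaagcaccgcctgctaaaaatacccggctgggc
Hsph1: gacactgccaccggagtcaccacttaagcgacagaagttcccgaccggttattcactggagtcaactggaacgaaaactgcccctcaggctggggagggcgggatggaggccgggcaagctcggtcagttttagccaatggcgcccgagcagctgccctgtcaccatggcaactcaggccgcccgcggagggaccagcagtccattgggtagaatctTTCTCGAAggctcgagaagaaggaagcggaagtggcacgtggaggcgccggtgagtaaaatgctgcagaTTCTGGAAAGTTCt

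In Hspa1a the element GAAGATTC began 104 bases before the start. Hspb1 had GAAGTTTC at 117 bases and GAACCTTC at 97 bases before the start. Hsph1 had TTCTCGAA 33 bases before the start and a run of 3 units, TTCTGGAAAGTTC, beginning 36 bases after it. Promoters were found in the table for 7 of the 10 genes, and 6 of these 7 held an element of 2 units on either strand, all but Dnajb1, against 16.97% of 27025 genes. Hsph1 alone of the 7 held a run of 3 units, GAANNTTC followed by NNGAA or TTCNNGAA followed by NNTTC, against 0.66% of genes. This motif contains the shorter one. The box CCAAT was in 5 of 7 promoters, against 41.06% of genes, and TATAAA was in 0 of 7, against 15.67% of genes, again on either strand. A match describes the letters in this window and is no measure of binding. The Hspa1b promoter, at chr17:34959189-34959488 on the minus strand, shared 296 of 300 bases with that of Hspa1a. The differences, with the base of Hspa1a first and positions counted from 1 at the 5′ end of the window, were C44T, T47C, T249G and C276T. The Hspa1a probe may also detect the near-identical Hspa1b transcript, so its values are uncertain as to which gene they come from, and this was not tested.

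The targeted gene differed in the direction of the labels in every pair. Pus1 averaged 7.31 ± 0.27 in mutant kidneys and 10.27 ± 0.18 in wild-type kidneys on the log2 intensity scale (SD, n = 4 each), and limma gave a log2 ratio of -2.96 with adjusted p = 0.000408. The labels do not say where the probe lies relative to the mutation. Hsph1 (chr5:149616843-149636498) and Hspb1 (chr5:135887919-135889563) lie on the same chromosome as Pus1, 38.84 and 25.11 Mb away in GRCm38.p6, and the other members lie on other chromosomes. In Cy3 the median spot had an intensity of 97 to 105 and its local background 51 to 57. The median spot of Cy5 had 220 to 245.5, and its background 141 to 144. All 9 measured chaperones were well above background in 8 of 8 channels, as were 10 of 10 proximal tubule markers. Samples differed in markers of tissue beside the tubules. The mean log2 level of 9 fat genes was 10.8 to 13.02 in mutant samples and 10.12 to 13.83 in wild-type samples, and that of 10 urothelial genes was 8.3 to 9.76 in mutant samples and 7.74 to 10.1 in wild-type samples.

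No measured chaperone gene passed the genotype test. By limma, with Benjamini-Hochberg adjustment over all 22122 items, 0 of 9 had an adjusted p under 0.05 and 0 of 9 an unadjusted p under 0.05, against 0.0271% and 4.47% of all items. The adjusted p of the 9 genes lay between 0.980 and 0.989. The fitted log2 ratio was below 0 for 9 of 9 genes, from -0.23 for Hspa1a to -0.04 for Hspa8, and 52% of all items were below 0. The 9 genes share samples and arrays and are not independent counts of a direction. Their median log2 ratio was -0.11, against -0.0045 for all items, where the median standard error of a ratio was 0.081. On the arrays taken singly, 6, 8, 4 and 8 of the 9 ratios were below 0 on arrays 1 to 4. Of all items 49.6%, 53.3%, 46.9% and 51.6% were below 0 on these arrays. Ratios on single arrays are not corrected for dye. The ratio was below 0 on all 4 arrays for Dnajb1 and Bag3, 2 of 9 genes, against 3.91% of all items, and above 0 on all 4 for 0 of 9, against 4.24%. Either sign alone thus held for 2 of 9 genes and for 8.15% of all items. Mutant and wild-type samples overlapped for every measured gene, and 0.655% of all items had groups that did not overlap.

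**Figure D1:**
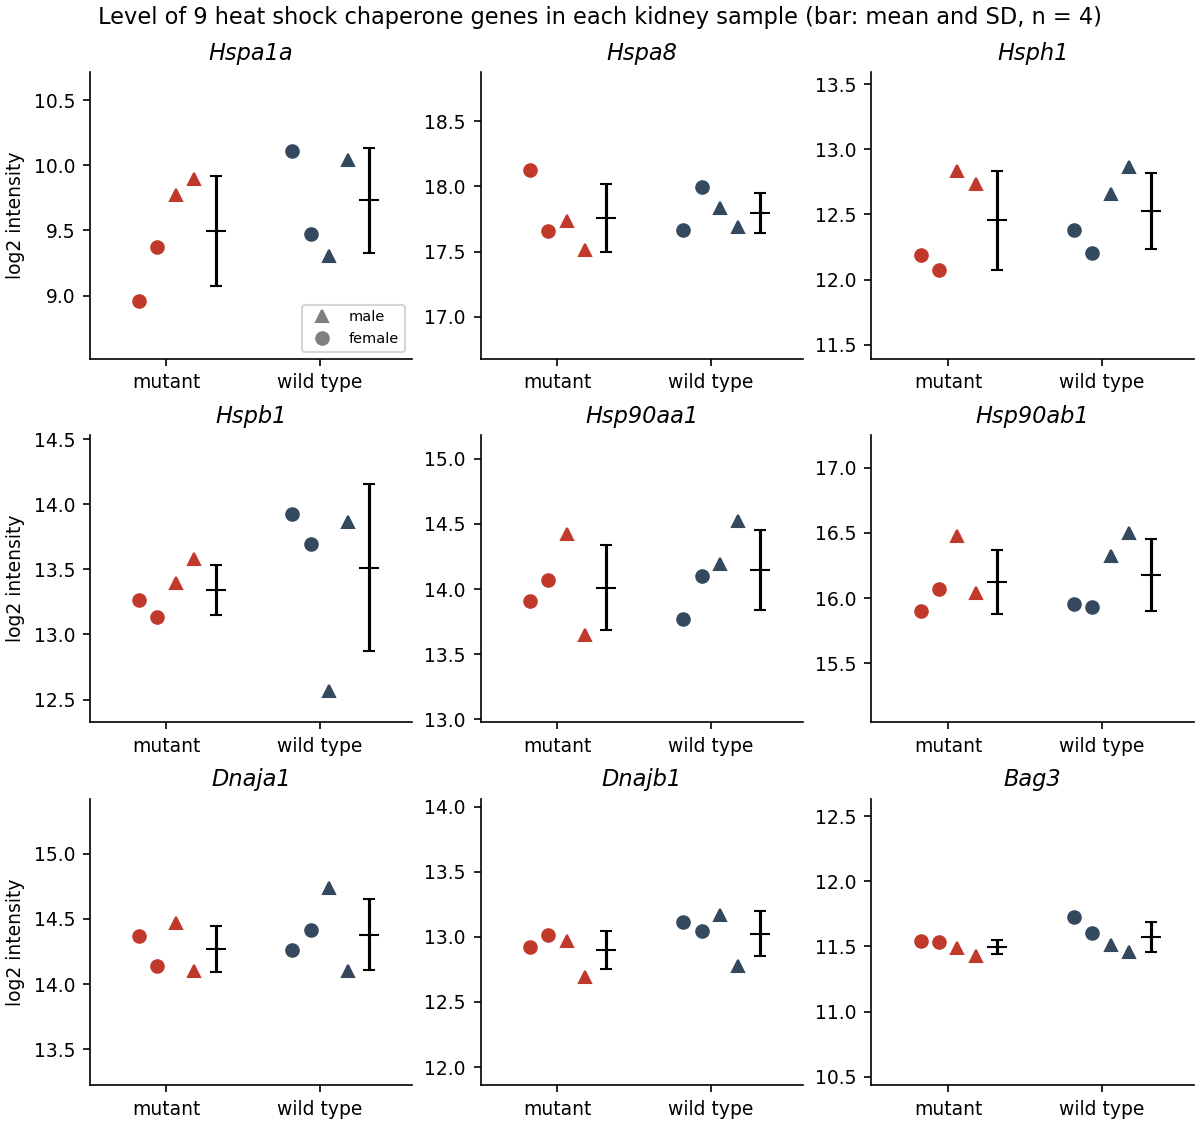
Log2 intensity of the 9 measured genes in each sample, with mutant samples left of wild-type samples, triangles for males, circles for females, and bars for the mean and SD of 4 samples. Each panel spans the same number of log2 units around its own centre, and mutant and wild-type samples overlap in all 9 panels.

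Among the Hsp70 genes, Hspa1a encodes the stress-inducible form and Hspa8 the constitutive Hsc70, which also uncoats clathrin vesicles. Hspa1a had log2 intensities of 8.96, 9.37, 9.77 and 9.89 in mutant samples 1 to 4, against 10.11, 9.47, 9.31 and 10.04 in wild-type samples 1 to 4. The mutant sample of pair 1 was the lowest and the wild-type sample of the same pair the highest. The means were 9.50 ± 0.42 in mutant kidneys and 9.73 ± 0.40 in wild-type kidneys (SD, n = 4 each), and limma's log2 ratio was -0.23 with an SE of 0.24, a 95% interval of -0.83 to 0.36 and adjusted p = 0.980. Without pair 1 this ratio was 0.17. Hspa8 had log2 intensities of 18.12, 17.66, 17.74 and 17.51 in mutant samples, against 17.66, 17.99, 17.84 and 17.69 in wild-type samples. Here the mutant sample of pair 1 was the highest of the 8 and the mutant sample of pair 4 the lowest. Its log2 ratio was -0.04 with an SE of 0.11. Without pair 3 it was 0.10. A further pair of Hspa8 probes gave log2 ratios of -0.05 and 0.13, and their ratios on the single arrays differed in sign from those of the brightest probe on arrays 1, 2 and 4 (for the dimmer probes -0.11 and -0.16 on array 1, 0.09 and 0.71 on array 2, and 0.29 and 0.47 on array 4, against 0.46, -0.34 and -0.18 for the brightest).

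The exchange factors were Hsph1, which encodes Hsp110, and Bag3, whose product couples Hsp70 to autophagy of damaged proteins. Hsph1 had log2 intensities of 12.19, 12.07, 12.83 and 12.73 in mutant samples, against 12.38, 12.21, 12.66 and 12.87 in wild-type samples. Both genotypes had lower values in replicates 1 and 2, the females, than in replicates 3 and 4. The genotype log2 ratio was -0.07 with an SE of 0.086. On the arrays it was -0.19, -0.13, 0.17 and -0.13, so that array 3 alone was above 0, and the fitted ratio without pair 1 was 0.019. A second Hsph1 probe gave -0.16. Bag3 had log2 intensities of 11.54, 11.54, 11.49 and 11.43 in mutant samples, against 11.72, 11.60, 11.51 and 11.45 in wild-type samples. It had the narrowest spread of ratios among the 9 genes, with an SD of 0.073 over 4 arrays, and the ratio was below 0 on each (-0.18, -0.07, -0.03 and -0.03). The fitted value was -0.08 with an SE of 0.072 and adjusted p = 0.980.

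The J proteins were Dnaja1 and Dnajb1, co-chaperones that stimulate the ATPase of Hsp70. Dnajb1 had log2 intensities of 12.92, 13.01, 12.97 and 12.69 in mutant samples, against 13.11, 13.04, 13.17 and 12.78 in wild-type samples. Each mutant sample was below its own partner, by ratios of -0.19, -0.03, -0.20 and -0.09, while mutant samples 1 to 3 all stood above wild-type sample 4. Dnajb1 had the smallest unadjusted genotype p of the 9 genes, 0.117 by limma, with a log2 ratio of -0.13, an SE of 0.069 and adjusted p = 0.980. Dnaja1 had log2 intensities of 14.37, 14.14, 14.47 and 14.10 in mutant samples, against 14.27, 14.42, 14.74 and 14.10 in wild-type samples, and pair 4 was nearly equal. Its log2 ratio was -0.11 with an SE of 0.096. The second Dnaja1 probe gave 0.034, and on array 4 its ratio was -0.42 where that of the brightest probe was 0.0013.

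Of the Hsp90 genes, Hsp90aa1 encodes the more inducible alpha form and Hsp90ab1 the constitutive beta form. Hsp90aa1 had log2 intensities of 13.91, 14.07, 14.42 and 13.65 in mutant samples, against 13.77, 14.10, 14.20 and 14.52 in wild-type samples. Pair 4 held both the lowest and the highest value, with a ratio of -0.87 beside 0.14, -0.04 and 0.23 on arrays 1 to 3. Its fitted log2 ratio was -0.14 with an SE of 0.14, and 0.074 without pair 4. Hsp90ab1 had log2 intensities of 15.90, 16.07, 16.47 and 16.04 in mutant samples, against 15.96, 15.93, 16.33 and 16.50 in wild-type samples. It too had its lowest ratio on array 4, -0.46, beside -0.06, 0.14 and 0.15 on arrays 1 to 3. The fitted log2 ratio was -0.06 with an SE of 0.11, and 0.094 without pair 4. After removal of dye means, the levels of the Hsp90 genes had a Pearson r of 0.875 with each other over 8 samples, which share arrays and sexes.

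Hspb1 encodes the small heat shock protein Hsp25 of mouse (Hsp27 of human), which holds unfolded proteins in solution and stabilises actin. It had log2 intensities of 13.26, 13.13, 13.40 and 13.58 in mutant samples, against 13.93, 13.69, 12.57 and 13.87 in wild-type samples. Wild-type sample 3 was the lowest of the 8 and the other wild-type samples were above all 4 mutant samples. The means were 13.34 ± 0.19 in mutant kidneys and 13.51 ± 0.64 in wild-type kidneys (SD, n = 4 each). Its ratios of -0.66, -0.56, 0.83 and -0.29 on arrays 1 to 4 gave a fitted log2 ratio of -0.17 with an SE of 0.23, a 95% interval of -0.73 to 0.39 and adjusted p = 0.983. Without pair 3 the fitted ratio was -0.54, and without pair 1 it was 0.20, and neither passed the test.

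**Figure D2:**
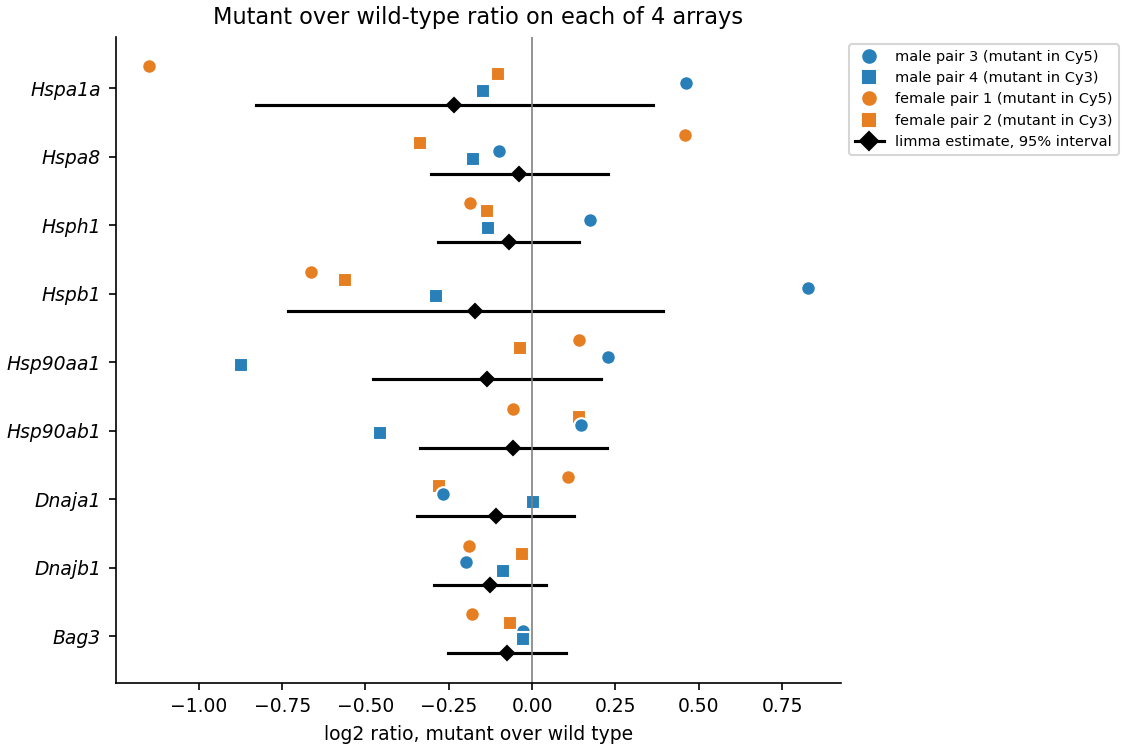
Log2 ratio of mutant over wild type on each of 4 arrays for the 9 measured genes, coloured by the sex of the pair and shaped by the dye of the mutant sample, with limma's estimate and 95% interval as a black diamond and line. All 9 intervals include 0, and Hspa1a and Hspb1 have the widest spread between arrays.

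The pairs of some members differed by more than those of most genes. The median SD of the 4 ratios was 0.284 over the 9 genes, against 0.217 over all items. Hspb1 (0.69), Hspa1a (0.67) and Hsp90aa1 (0.50) had the largest. The highest of the 8 samples was wild type for 8 of 9 genes, namely wild-type sample 1 for 3, wild-type sample 4 for 3 and wild-type sample 3 for 2. The lowest was mutant for 7 of 9 genes, and mutant sample 4 was the lowest for 4 of them. No sample was the highest or the lowest for all 9. The share of all items with such extremes was not computed, and the 9 genes share samples, so these counts give no direction of genotype.

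An interaction term compared the genotype ratio of male pairs with that of female pairs. By limma, 0 of 9 genes passed at an adjusted p under 0.05, against 0.14% of all items, and 1 of 9, Hspb1, had an unadjusted p under 0.05, against 3.83%. Hspb1 had a mean log2 ratio of 0.27 in male pairs and -0.61 in female pairs, a difference of 0.88 with an SE of 0.29, unadjusted p = 0.0207 and adjusted p = 1.00. The male pairs themselves differed in sign, 0.83 and -0.29, and between pairs of the same dye the difference was 1.49 (arrays 3 and 1) and 0.27 (arrays 4 and 2). Hspa1a had a mean of 0.16 in male pairs and -0.63 in female pairs, a difference of 0.78 with an SE of 0.37 and unadjusted p = 0.0707. Between pairs of the same dye it was 1.61 (arrays 3 and 1) and -0.045 (arrays 4 and 2). The difference was -0.38 with an SE of 0.25 for Hsp90aa1, with 0.087 and -0.84 between pairs of the same dye, and between -0.20 and 0.18 for the other 6 genes. This fit keeps 1 residual degree of freedom, and pairs of 1 sex carried opposite dyes, so a gap between pairs that both sexes share does not enter its errors.

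The pattern of Hspb1 over the samples was set beside genes of the osmotic response and of other tissue, named after their values were seen. Akr1b3, which encodes aldose reductase, the enzyme that makes sorbitol in medullary cells, had log2 intensities of 12.50, 11.99, 15.10 and 15.02 in mutant samples, against 15.07, 14.43, 12.76 and 15.66 in wild-type samples. Cryab, the small heat shock protein alpha-B crystallin, had 14.68, 14.66, 15.15 and 15.29 in mutant samples, against 15.14, 15.25, 14.23 and 15.74 in wild-type samples. Wild-type sample 3 was low in both, as in Hspb1, and so were mutant samples 1 and 2. The betaine transporter gene Slc6a12 had 7.88, 7.98, 8.82 and 8.97 in mutant samples, against 9.20, 8.52, 7.43 and 9.14 in wild-type samples. Upk3a, a uroplakin gene of the urothelium, had 9.01, 8.54, 10.33 and 10.71 in mutant samples, against 11.52, 10.84, 7.26 and 10.75 in wild-type samples, again lowest in wild-type sample 3. Other osmotic response genes did not all run this way. Slc6a6 had ratios of 0.11, -0.31, -0.14 and 0.09 on arrays 1 to 4. Nfat5 had 0.34, -0.34, 0.36 and -0.29, and Slc5a3 had 0.20, -0.22, 0.45 and -0.24. Both were above 0 on the arrays with the mutant in Cy5, and ratios on single arrays are not corrected for dye. Nfat5 was lowest in mutant sample 2 (7.72), while Slc5a3 was lowest in wild-type sample 3 (10.64), as was Hspb1.

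Lists of genes differed in the array on which their median ratio was highest. The median log2 ratio of 8 osmotic response genes was -0.48, -0.44, 0.54 and -0.20 on arrays 1 to 4. That of 10 urothelial genes, 6 of them well above background in every channel, was -1.79, -1.43, 1.56 and -0.06. For 9 fat genes it was -1.61, -1.92, 1.93 and 0.53, and for 9 collecting duct genes -0.48, 0.05, 0.52 and -0.11. In all 4 of these array 3 was the highest, as it was for the lists of further small heat shock proteins (0.27), endoplasmic reticulum chaperones (0.14), immediate early genes (0.07) and immune cell markers (0.18). The median of the 9 measured chaperone genes was also highest on array 3 (0.148), as was that of all items (0.0156). Smooth muscle and podocyte markers were highest on array 4 (0.54 and 0.60), and proximal tubule and thick limb markers on array 1 (0.54 and 0.58). None of the osmotic, urothelial, fat and collecting duct genes passed the genotype test. In the interaction 0 of the osmotic, urothelial and collecting duct genes passed. It was passed by 6 of 9 fat genes and 2 of 6 smooth muscle genes, against 0.14% of all items. No item, these fat and smooth muscle genes included, passed it with processed signals, with an offset of 16 or with the authors' value table. The same held without the dye term and without the replicate block. In the sex comparison 2 of 8 osmotic genes were higher in males, Nfat5, the transcription factor of this response (0.51, adjusted p = 0.0195), and the taurine transporter gene Slc6a6 (0.47, adjusted p = 0.0114), by limma, against 18% of all items. The part of medulla, urothelium or fat in the sections in the values of Hspb1 and Hspa1a was not tested.

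**Figure D3:**
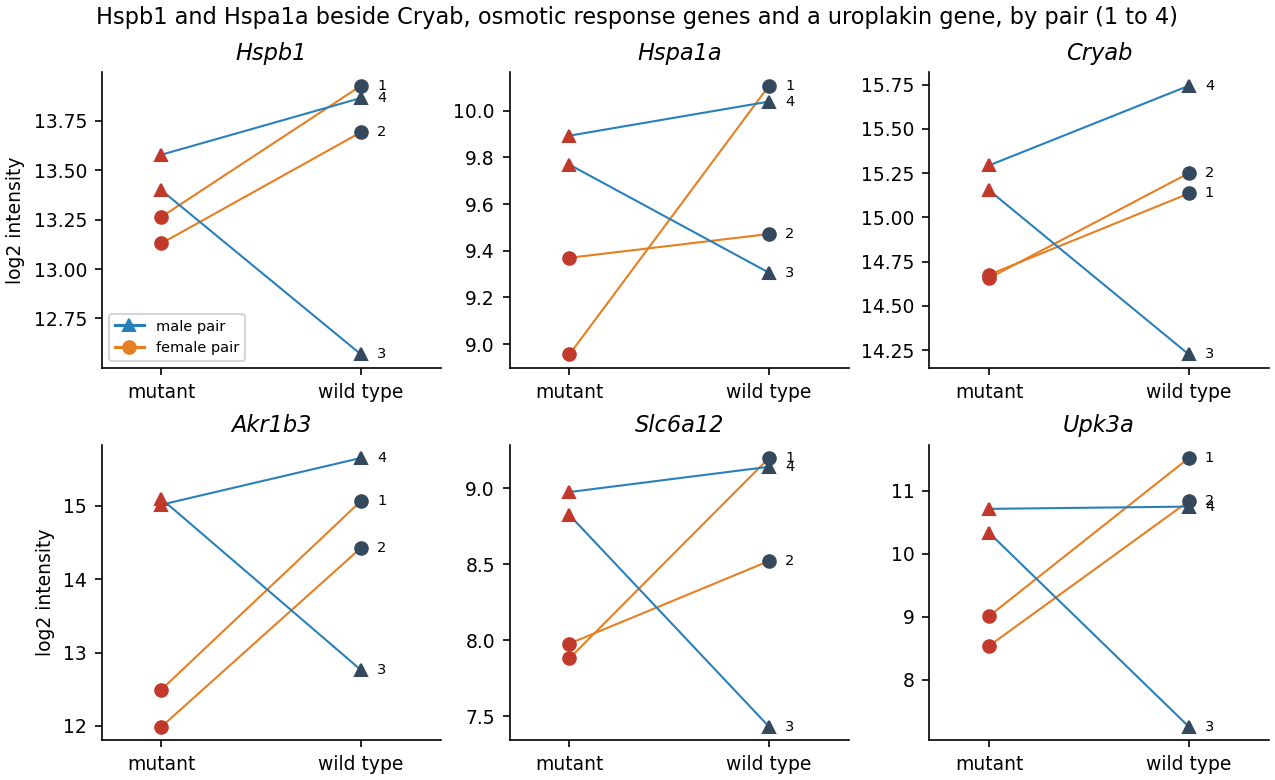
Log2 intensity of Hspb1, Hspa1a, Cryab, Akr1b3, Slc6a12 and Upk3a, with the mutant sample joined to the wild-type sample of its pair (numbered 1 to 4), blue lines for male pairs and orange lines for female pairs, and a separate scale in each panel. In each panel the line of pair 3 falls toward wild type while those of female pairs 1 and 2 rise toward it.

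Male and female kidneys were compared on the mean of both channels of each array, 2 male arrays against 2 female arrays, each holding both genotypes. Sex and the position of the array on the slide cannot be told apart in this design. By limma, 2 of 9 genes passed at an adjusted p under 0.05, both higher in males, against 43.8% of all items in either direction, 18% higher in males and 25.8% lower in males. The same 2 genes had an unadjusted p under 0.05, as had 53.5% of all items. Male and female samples did not overlap for 2 of 9 genes, Hsph1 and Bag3, against 43% of all items. Over all items the median difference, male minus female, was -0.10 with quartiles of -0.32 and 0.19, and the median absolute difference was 0.17 for the 9 genes, against 0.28 for all items.

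Hsph1 was higher in male kidneys, with log2 intensities of 12.83 and 12.73 in male mutants and 12.66 and 12.87 in male wild types, against 12.19 and 12.07 in female mutants and 12.38 and 12.21 in female wild types. All 4 males stood above all 4 females, which 18% of all items also showed. The means were 12.77 ± 0.09 in males and 12.21 ± 0.13 in females (SD, n = 4 each), a difference of 0.56 with an SE of 0.089, or 1.47-fold, and adjusted p = 0.00900 by limma. The size of this difference was at percentile 79.5 of all items. The second Hsph1 probe gave 0.66. Without replicate 2 the adjusted p was 0.0677.

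Hsp90ab1 was also higher in male kidneys, with means of 16.33 ± 0.21 in males and 15.96 ± 0.08 in females (SD, n = 4 each). The difference was 0.37 with an SE of 0.087, or 1.29-fold, with adjusted p = 0.0253 by limma. Male mutant 4, at 16.04, lay below female mutant 2, at 16.07, so the sexes overlapped. The call was lost with the scanner program's own processed signals (adjusted p = 0.0542), with the authors' value table (0.0504), in a fit of the separate channels (0.0505) and without replicate 1, 2 or 3 (0.137, 0.103 and 0.0639).

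The other 7 genes did not pass. The difference, male minus female, was 0.28 for Hspa1a, 0.24 for Hsp90aa1, 0.054 for Dnaja1, -0.12 for Dnajb1, -0.13 for Bag3, -0.15 for Hspb1 and -0.17 for Hspa8, with adjusted p from 0.191 to 0.816. Bag3 averaged 11.47 ± 0.04 in males and 11.60 ± 0.09 in females (SD, n = 4 each), and all 4 males lay below all 4 females, as for 25% of all items, with adjusted p = 0.226. The second Dnaja1 probe gave -0.27, opposite in sign to the brightest. Hspa1a passed without replicate 3 (0.49, adjusted p = 0.0233), and Hspb1 without replicate 4 (-0.52, adjusted p = 0.0282).

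**Figure D4:**
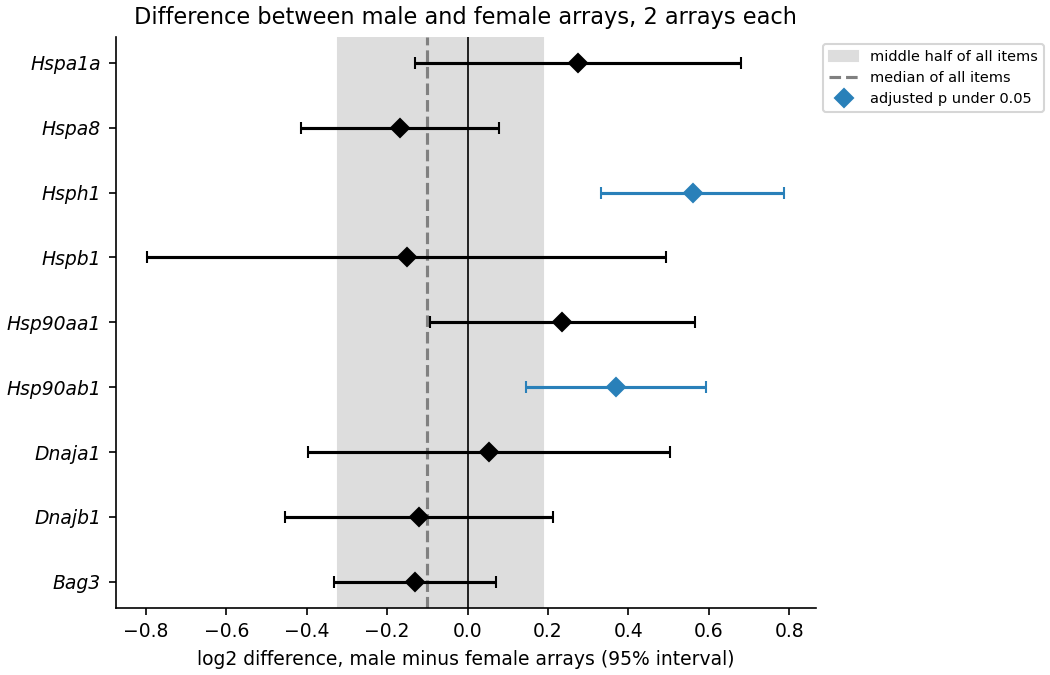
Difference in log2 level between 2 male and 2 female arrays for the 9 measured genes, with 95% intervals, over a grey band that runs between the quartiles of all items and a dashed line at their median. Hsph1 and Hsp90ab1, in blue, passed the test, and the intervals of the other 7 genes include 0.

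Other chaperones and their regulators were taken as 8 lists of 99 genes, of which 94 were measured. Their genotype ratios were above 0 for 47 and below 0 for 47, with a median of -0.0005, and 0 of 94 passed the genotype test or the interaction by limma. The list of HSF genes had 4 of 5 measured. The transcription factor genes Hsf1, Hsf2 and Hsf4 had log2 ratios of -0.06, -0.08 and 0.0071, and Hsbp1, which encodes an HSF-binding protein, had 0.09. In the sex comparison 26 of 94 passed, 14 higher and 12 lower in males, against 43.8% of all items.

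Among the partners of Hsp70, 3 of 14 further Hsp70, Hsp110 and exchange factor genes differed between the sexes, against 43.8% of all items. Hspa2, known for its role in sperm cells, was lower in males (log2 difference -0.82, adjusted p = 0.00370), as was the exchange factor Bag4 (-0.55), while Bag1 was higher (0.26). Of 14 further J proteins 5 were higher and 1 lower in males, against 18% and 25.8% of all items. The largest differences were those of Dnajc5 (1.24), the cysteine string protein of secretory vesicles, the ribosome-bound Dnajc2 (1.06) and Dnajc7 (0.67). For Hsp90, against 43.8% of all items, 3 of 15 co-chaperone genes passed. They included Fkbp5, a steroid receptor co-chaperone that glucocorticoids and androgens induce (0.65, adjusted p = 0.0103), and Cdc37l1 (0.30).

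Of 7 further small heat shock protein genes, 0 passed the genotype test. Hspb8, whose protein works with Bag3, was the 1 gene of the list with 1 sign on all arrays (0.025, 0.12, 0.35 and 0.61), with a log2 ratio of 0.28 with an SE of 0.11, unadjusted p = 0.0458 and adjusted p = 0.980 by limma. It was lower in males (-0.58, adjusted p = 0.00703), and the lens crystallin gene Cryaa was higher in males (1.15, adjusted p = 0.0352).

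In the other compartments, the mitochondrial chaperonin Hspd1 was higher in males (0.76, adjusted p = 0.00674), as was the mitochondrial Hsp70 gene Hspa9 (0.43). Of all items 18% were higher and 25.8% lower in males. The mitochondrial list had 3 genes higher and 1 lower in males of 10 measured. The list of the endoplasmic reticulum had 1 higher and 4 lower of 16, and the cytosolic chaperonin list 1 higher and 2 lower of 14. The last were Cct6a, a chaperonin subunit (0.45), and the prefoldin genes Pfdn4 (-0.44) and Vbp1 (-0.43). Of the endoplasmic reticulum genes Dnajb11 was higher (0.55), and Sdf2l1 (-0.47), calnexin, Canx (-0.37), Manf (-0.35) and the collagen chaperone gene Serpinh1 (-0.30) were lower in males. Clpx, a mitochondrial unfoldase, had a genotype log2 ratio of 0.18 with an SE of 0.075, unadjusted p = 0.0498 and adjusted p = 0.980 by limma.

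The proteasome, which degrades clients that chaperones do not rescue, had 27 of 27 listed genes measured, with genotype ratios above 0 for 15 and below 0 for 12 and 0 past the test. Psma6 had the largest ratio among its genes of 1 sign on all arrays, 0.19 with an SE of 0.070, unadjusted p = 0.0346 and adjusted p = 0.980 by limma. Of all items 4.47% had an unadjusted p under 0.05. Mutant and wild-type samples of Psma6 did not overlap, as for 0.655% of all items. In males 3 proteasome genes were higher and 5 lower, against 18% and 25.8% of all items. The higher were Psmd1 (0.53), Psmd4 (0.37) and Psmc5 (0.34), and the lower included Psmb2 (-0.46) and Psmb1 (-0.39).

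Immediate early genes, a fast response to cell signals and to handling of tissue, had ratios below 0 for 18 of 20 measured genes with a median of -0.14, against 52% of all items below 0, and 0 passed the genotype test. Of the 20 genes 16 were well above background in every channel. They share samples and arrays and are not independent counts of a direction. Fosb, with ratios of -0.25, -0.22, -0.13 and -0.37, had a fitted value of -0.24 and an SE of 0.074 (unadjusted p = 0.0166 by limma). Jund had -0.22 with an SE of 0.086 (unadjusted p = 0.0441 by limma). The adjusted p was 0.980 for both. In males 10 of the 20 were lower and 0 higher, against 25.8% and 18% of all items. The lower genes included Egr1 (-1.42), Klf2 (-1.33), Atf3 (-0.71) and the phosphatase gene Dusp1 (-0.63). Their part in the values of the chaperones was not tested.

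The pattern of the chaperones over the samples was compared with that of 14275 named genes, by Pearson r over 8 samples after removal of dye means. The mean of the 9 genes was most like Syf2 (r = 0.989), Cygb (0.978), Rfng (0.970), Exosc10 (0.960) and Tcf3 (0.953), where the 99th percentile over all genes was 0.806. Hspb1, which had the widest range of the 9, was most like Rasl12 (0.983), Gata3 (0.982), Etv3 (0.981), 9130008F23Rik (0.979) and Gadd45b (0.979). Among the members r ran from 0.875 for the Hsp90 genes to -0.832 between Hspa1a and Hspa8, and Hspa1a and Hspb1 had 0.789. With 8 samples on 4 arrays these values describe the samples and carry no test.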

How the data were processed

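Per the file headers, the deposited intensity values are median pixel intensities of each spot and its local background, and a processed signal, from Agilent Feature Extraction 10.7.3.1. The authors' value table holds, by its match to the processed signals, gene-centred log2 values in the same direction as the labels, with column medians of -0.0219 to 0.0184; its further steps are not given in the labels. The log2 ratios and levels in the report were computed here: normexp background with an offset of 50 on the median signal and loess within arrays, with levels after Aquantile (limma 3.58.1, R 4.3.3, data.table, version 1.17.8; figures with Python 3.11.15 and matplotlib 3.10.9). Controls (3671 of 62976 spots) and 191 to 252 outlier spots on each array were left out, and 28960 of 55668 probes were kept. Accessions were named through RefSeq, which gave 14284 items a symbol and 7838 none.

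The genotype fit used limma on 4 log2 ratios with a dye term (2 residual degrees of freedom), the interaction added sex (1), and the sex fit used 4 array means (2). The p-values are 2-sided. The labels call the samples biological replicates. Pairs come from the shared array; deviations of same-numbered samples from genotype means correlated by 0.680 to 0.782, which sex alone raises; within females r was -0.266 and within males 0.0728, where the pairs of each sex had opposite dyes. Named genes are all members, Pus1, list genes that passed a test (at most 5 per list and comparison), up to 3 per list with 1 sign on all arrays, and the 5 genes most like the members' mean and most like the member of widest range. Hsf1, Hsf2, Hsf4, Hsbp1, Akr1b3, Cryab, Slc5a3, Slc6a12 and Upk3a lie outside it: they were picked with their values known. A gene that this rule names is not reported here. Members and lists were chosen with earlier results of these data known. Alternatives changed background, normalization, filter, the item tested (gene or single probe), dye and sex terms, pairing and single replicates. The fits were tested on simulated data. Of log2 changes of 0.5 the genotype fit recovered 71.2%, the interaction 20% and the sex fit 40.3%. Of changes of 1 they recovered 100%, 92.9% and 96.5%, and of changes of 2 each recovered 100%. False calls numbered 16, 50 and 21 in this order. In each fit they were a larger share of the calls than the adjusted p threshold allows for.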

Additional observations from a re-analysis of the deposited data

Results flagged for a closer look

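The log2 ratio of Hsph1, mutant over wild type, was 0.17 on array 3 and -0.19 to -0.13 on the other 3 arrays. Its gap to the nearest of these was 0.846 of the whole range, past Dixon's 95% critical value for 4 values. Of 27 such groups of 4 values among the 9 genes it was the 1 that passed, and chance gives about 1 in 20.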

How the results depend on the processing

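In the genotype fit 0 of 9 chaperone genes passed in any of 14 alternatives (limma, adjusted p 0.66 to 1.00), and the 9 fitted ratios were below 0 in every alternative that kept all 4 pairs. Every alternative read a chaperone gene from the same probe, and changes of filter, dye term, sex term or pairing leave its fitted ratio as it is. Further probes, not used there, gave 0.034 for Dnaja1, -0.05 and 0.127 for Hspa8 and -0.161 for Hsph1. Without replicates 1 to 4 in turn, 6, 8, 8 and 7 of the 9 fitted ratios were below 0: ratios ran from -0.64 to 0.17 for Hspa1a, -0.18 to 0.10 for Hspa8, -0.16 to 0.019 for Hsph1, -0.54 to 0.20 for Hspb1, -0.34 to 0.074 for Hsp90aa1 and -0.21 to 0.094 for Hsp90ab1. The sex difference ran from -0.52 to 0.22 for Hspb1, -0.20 to 0.31 for Dnaja1 and -0.29 to 0.049 for Dnajb1. With median in place of loess normalization the interaction of Dnaja1 was 0.024 and that of Dnajb1 0.025. Without replicate 2 the sex call of Hsph1 was lost; it held in 12 of 13 alternatives. Of all items, 6 passed in the genotype fit, against 0 with processed signals (1003 at unadjusted p under 0.05), 0 with the authors' value table (1023), 10 with median normalization, and 1 to 3 without 1 replicate. In the interaction 31 passed, against 0 with processed signals (976), 0 with an offset of 16 (855), 0 with the value table (926), 0 without the dye term (355), 223 with median normalization, 66 without a filter on dim probes and 54 with each probe as its own item. With 1 replicate left out the interaction has no residual degrees of freedom, so that only values were computed: they ran from -0.045 to 1.61 for Hspa1a, 0.27 to 1.49 for Hspb1 and -0.84 to 0.087 for Hsp90aa1. The sex comparison had 9682 calls, and 2543 to 8549 without 1 replicate, lowest without the female replicates 1 (3143) and 2. Without the replicate block, the pairing within an array, 2 items passed the genotype fit and 0 the interaction (556 at unadjusted p under 0.05), and it changed no call of a chaperone gene. The cause of these changes was not tested. The number of arrays limits precision: the narrowest genotype interval of the 9 genes, that of Dnajb1, was -0.30 to 0.043.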
